A study of Rattus norvegicus with 2 samples.

Results

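Collagen chain genes are the genes whose symbols have the form Col, a type number, a and a chain number. They were taken by that pattern from the authors' deposited comparison table, which gave 27 of its 17327 genes. The comparison is between differently exposed groups of myometrial progenitor cells, cultured precursors of uterine smooth muscle. One group was labelled DES-exposed and the other VEH-exposed. In such studies DES commonly stands for the synthetic estrogen diethylstilbestrol and VEH for its vehicle, but the labels do not spell them out. Both groups were rat cells of the myometrium at passages 1 to 3, and each was 1 library (n = 1) made from the pooled cells of 5 animals. The sources used here give no strain, age, dose or time of exposure.

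Neither the table nor the labels name the numerator of its fold change. The 2 libraries are therefore called after their place in that ratio, numerator and denominator library, and the sign of a ratio does not say whether DES raised or lowered a gene. The table also gives no value per library, so whole read counts of both libraries were recovered from its means. The numerator library held 106599579 reads in the listed genes and the denominator library 104793348. With 1 library per group there is no replicate check, no test was possible, and the spread between animals or cultures is unknown. Intervals in brackets are 95% and cover counting error only.

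Collagens are matrix proteins built of 3 chains wound into a triple helix. Fibrillar collagens assemble into the fibrils that give tissue its tensile strength, type IV forms the sheet of basement membranes, and type VI forms beaded microfilaments around cells. FACIT collagens sit on the surface of fibrils, and transmembrane collagens span the cell membrane. In the myometrium, collagen surrounds bundles of smooth muscle, and its excess is a known feature of uterine fibroids.

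Most collagen chains had fewer reads in the numerator library. Of the 27 genes, 2 were listed at 0 (Col9a1 and Col26a1), 6 lay above 0 but under a mean of 20 normalised reads, and 19 reached that mean. Normalised reads are reads divided by a library's size factor. A gene is called higher or lower below when its normalised reads differed at least 2-fold, its mean was at least 20 and the counting interval excluded a ratio of 1. Of the 19 chains, 9 (47.4%) were lower, where 12.7% of the 11212 genes with that mean were. Another 3 (15.8%) were higher, where 13.9% of all genes were, so this share lay near that of all genes. The remaining 7 were within 2-fold, 6 of them with a ratio below 1 and 1 above it. In all, 15 of the 19 chains had a ratio below 1, where 49.6% of all genes had one. In bulk RNA, fewer cells of a type and less RNA per cell cannot be told apart.

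The median log2 ratio of the 19 chains, numerator over denominator, was -0.77, with quartiles of -1.96 and -0.29. Over all 11212 genes the median was 0.01, with quartiles of -0.52 and 0.52. The median of the chains moved with the smallest mean allowed. It was -1.29 over the 17 chains with a mean of at least 100 and -0.57 over the 14 with a mean of at least 1000. Among those 14 chains, 6 were lower and 2 higher. Of the 7911 genes with a mean of at least 1000, 8.49% were lower and 8.39% higher.

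**Figure D1:**
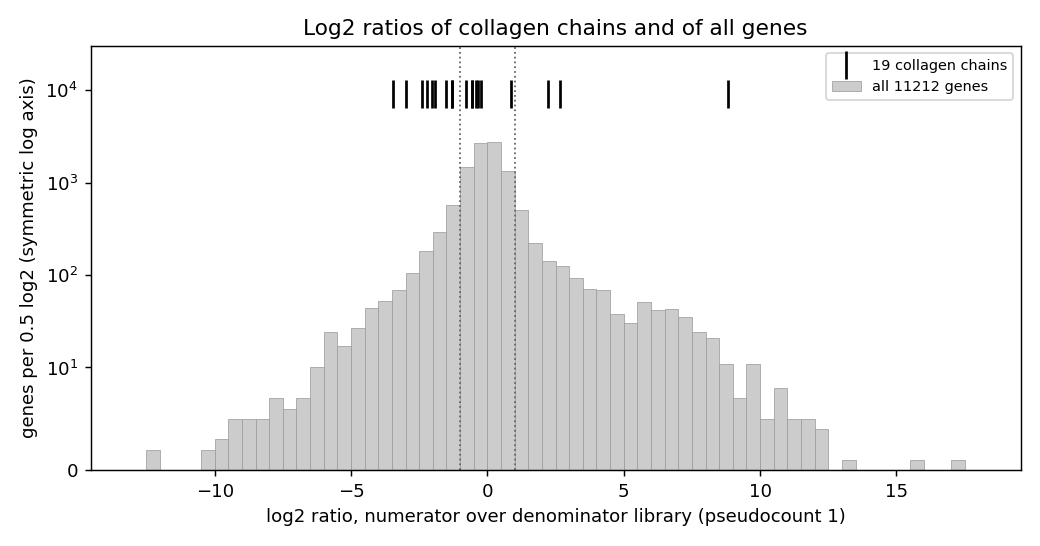
Log2 ratios of normalised reads, numerator over denominator library, for the 19 collagen chains with a mean of at least 20 (black ticks) above the distribution of all 11212 genes with that mean (grey bars, genes per 0.5 log2 on a symmetric log axis). Dotted lines mark 2-fold; 9 ticks lie left of them, 3 right, and Col11a1 stands alone at 8.82.

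Collagen reads made up a smaller part of the numerator library. All chains together held 7502156 reads there, 7.04% of the listed genes' reads (Wilson interval 7.033 to 7.043%). In the denominator library they held 14831371, or 14.15% (interval 14.146 to 14.160%). Most of this gap lay in the 2 chains of type I collagen. Col1a1 and Col1a2 held 4.34% of reads in the numerator and 10.70% in the denominator library. They gave 61.7% of all collagen reads in the numerator and 75.6% in the denominator library. The other chains together held 2.70% in the numerator and 3.45% in the denominator library, and their normalised reads were 1.28-fold lower in the numerator library. Reads are not corrected for transcript length here, so they compare a chain between libraries and not one chain with another.

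**Figure D2:**
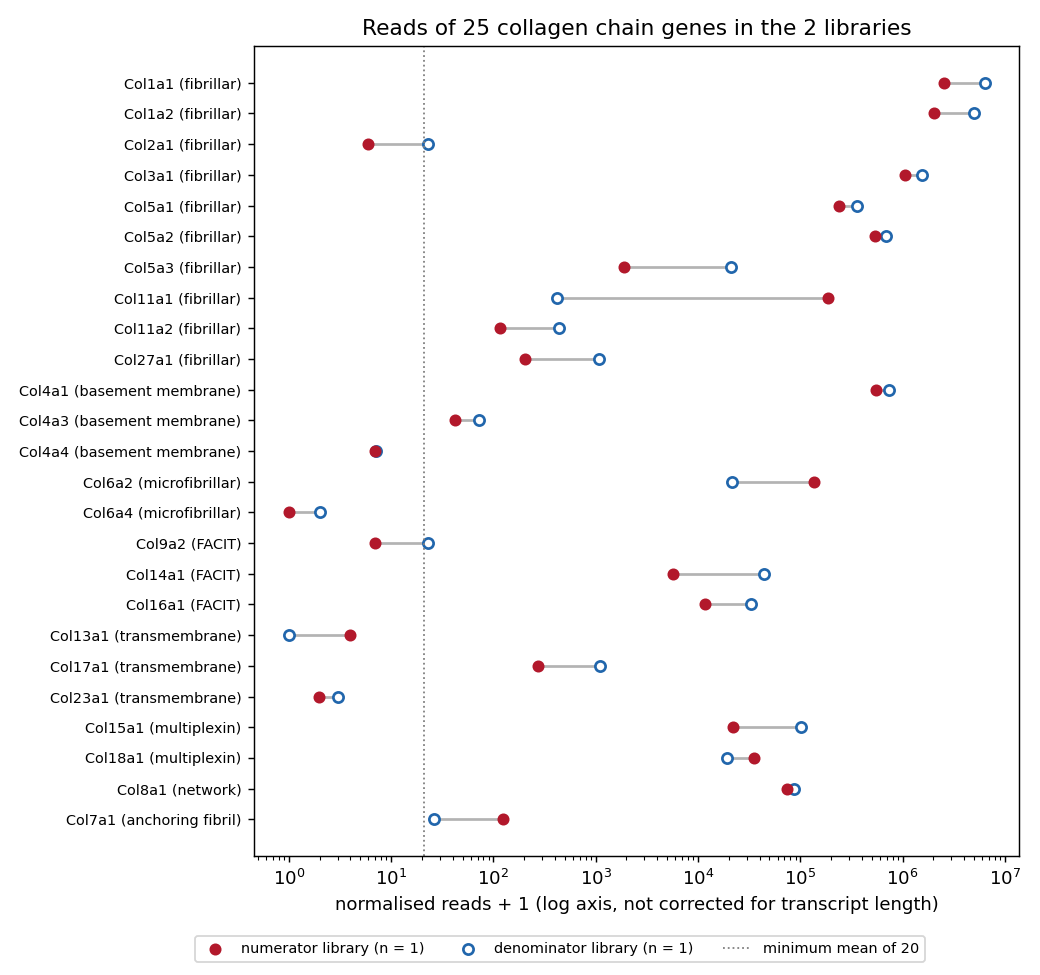
Normalised reads plus 1 (log axis) of the 25 collagen chains read in either library, by class; filled points are the numerator library, open points the denominator library, 1 library each. The filled point lies far right of the open one for Col11a1 and Col6a2, and left of it for most chains of the fibrillar class.

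Fibrillar chains were the largest class, with 10 genes, 9 of them at a mean of at least 20. Of these, 5 were lower, 1 was higher and 3 were within 2-fold, where 12.7% of all genes were lower and 13.9% higher. The median log2 ratio of these 9 chains was -1.29. Col1a1, the main chain of type I collagen, had 2579682 reads in the numerator and 6284823 in the denominator library, a 2.48-fold lower value. Col1a2, the second chain of the same molecule, had 2047487 reads in the numerator and 4926343 in the denominator library and was 2.45-fold lower. Less the median log2 ratio of the genes on its chromosome, the log2 ratio of Col1a2 was -0.91, which is within 2-fold. At this depth both intervals were narrower than the rounding of the folds. The pair therefore kept nearly the same balance in both libraries. The ratio of Col1a1 to Col1a2 reads in the numerator library was 0.988 times that in the denominator library (interval 0.985 to 0.990, from a normal approximation on the log scale, as for the other chain pairs).

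Col3a1, which forms type III fibrils together with type I in soft tissue, differed less. The numerator library gave 1066367 Col3a1 reads and the denominator library 1539954, 1.47-fold fewer in normalised reads and within the limit. Col5a2, its direct neighbour in RefSeq's GRCr8 annotation, had 539515 reads in the numerator and 675008 in the denominator library (1.27-fold fewer, counting interval 1.27 to 1.28). The ratio of Col3a1 to Col5a2 was 0.866 times as large in the numerator library (interval 0.863 to 0.870). So the 2 neighbouring genes differed in the same direction, by unequal amounts.

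Types V and XI are closely related minor fibrillar collagens that sit inside type I and type II fibrils and help set their diameter, and their chains can combine with each other. Their 5 chains held both the highest and the lowest ratio of the family. Col11a1 had 189266 reads in the numerator and 411 in the denominator library, a 452-fold higher value (interval 411 to 499). Its partner Col11a2 went the other way, with 116 reads in the numerator and 430 in the denominator library (3.77-fold lower, counting interval 3.07 to 4.67). Col5a3, the third type V chain, had 1916 reads in the numerator and 20890 in the denominator library, 11.1-fold lower (counting interval 10.6 to 11.6). Col11a1 reads thus came almost wholly from the numerator library, and Col5a3 and Col11a2 reads mostly from the denominator library.

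The 2 main type V chains stayed within the limit. Col5a1 had 240329 reads in the numerator and 351473 in the denominator library (1.49-fold fewer), and Col5a2 was given above. The ratio of Col5a1 to Col5a2 was 0.855 times as large in the numerator library (interval 0.850 to 0.861). The ratio of Col5a3 to Col5a2 was 0.115 times as large (interval 0.109 to 0.120), and that of Col11a1 to Col5a2 was 576 times as large (interval 523 to 635). Within this subfamily, then, the make-up of the messages differed far more between the libraries than in type I.

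Beside the high Col11a1, a cartilage collagen, stood the chondrocyte markers, 2 of 3 higher, where 13.9% of all genes were. They summed to 2472 normalised reads in the numerator and 226 in the denominator library. Without Acan the sums were 528 in the numerator and 226 in the denominator library. Acan, the proteoglycan aggrecan, had 1961 reads in the numerator and 0 in the denominator library, which is at least 642-fold higher when the denominator library is set to the floor of 3 reads. The log2 fold change of Acan in the authors' deposited table is 0.43. Matn3 had 190 reads in the numerator and 20 in the denominator library (9.33-fold higher), and Sox9, the regulator of cartilage genes, had 325 in the numerator and 181 in the denominator library (1.76-fold more, within the limit). The cartilage chains Col2a1, Col9a2 and Col27a1, given below, did not share the direction of Col11a1. The part of these markers in the Col11a1 result was not tested.

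The sequences just before the annotated start are shown for the highest, the lowest and the least changed of these 5 chains. They are the 250 bases upstream of the RefSeq start in build GRCr8, on the gene's strand, 5′ to 3′, Col11a1 at chr2:204508886-204509135 (+), Col5a3 at chr8:27625949-27626198 (-) and Col5a2 at chr9:55090152-55090401 (-). Capitals mark matches to the GC box GGGCGG, which Sp1 proteins bind, and to the CCAAT box, on either strand.
Col11a1: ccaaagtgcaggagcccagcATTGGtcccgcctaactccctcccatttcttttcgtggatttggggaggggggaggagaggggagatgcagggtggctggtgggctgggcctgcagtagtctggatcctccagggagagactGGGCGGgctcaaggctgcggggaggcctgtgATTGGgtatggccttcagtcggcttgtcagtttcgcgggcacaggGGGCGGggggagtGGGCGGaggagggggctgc
Col5a3: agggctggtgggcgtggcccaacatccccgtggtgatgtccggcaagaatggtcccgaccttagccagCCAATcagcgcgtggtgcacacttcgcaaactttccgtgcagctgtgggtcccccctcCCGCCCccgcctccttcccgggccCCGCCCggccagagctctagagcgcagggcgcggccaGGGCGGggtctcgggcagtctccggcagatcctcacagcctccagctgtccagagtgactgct
Col5a2: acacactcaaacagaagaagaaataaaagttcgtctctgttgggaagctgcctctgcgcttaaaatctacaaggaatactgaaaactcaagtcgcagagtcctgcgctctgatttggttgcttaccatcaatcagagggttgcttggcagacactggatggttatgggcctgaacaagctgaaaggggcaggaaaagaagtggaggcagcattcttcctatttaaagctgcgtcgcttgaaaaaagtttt
Col11a1 and Col5a3, which lie at opposite ends of the chains, each hold 3 GC boxes. Col11a1 holds 2 CCAAT boxes and Col5a3 holds 1. Col5a2 holds neither motif.

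RefSeq's table gave this stretch for 22 of the 27 chains. A GC box lay in 12 of the 22, against 32.4% of the same stretch in all 27457 genes of the table. A CCAAT box lay in 6 of the 22, against 34.3%. The TATA box TATAAA lay in 3, against 13.1%. The SMAD half-site CAGAC, used by the TGF-beta pathway, lay in 9, against 42.8%. The AP-1 site TGANTCA lay in 0, against 6.36%, and the estrogen response element, GGTCA and TGACC with 3 bases of any kind between them, also in 0, against 0.0219%. Each motif was searched on both strands, and no motif is part of another.

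The remaining fibrillar chains, Col27a1 and Col2a1, had fewer reads in the numerator library. Col27a1, a fibrillar chain known from cartilage, had 207 reads in the numerator and 1076 in the denominator library (5.29-fold lower, counting interval 4.56 to 6.17). Col2a1, the main chain of cartilage fibrils, had 5 reads in the numerator and 22 in the denominator library, under the minimum. Its ratio was 4.48-fold lower with an interval of 1.66 to 15.1.

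**Figure D3:**
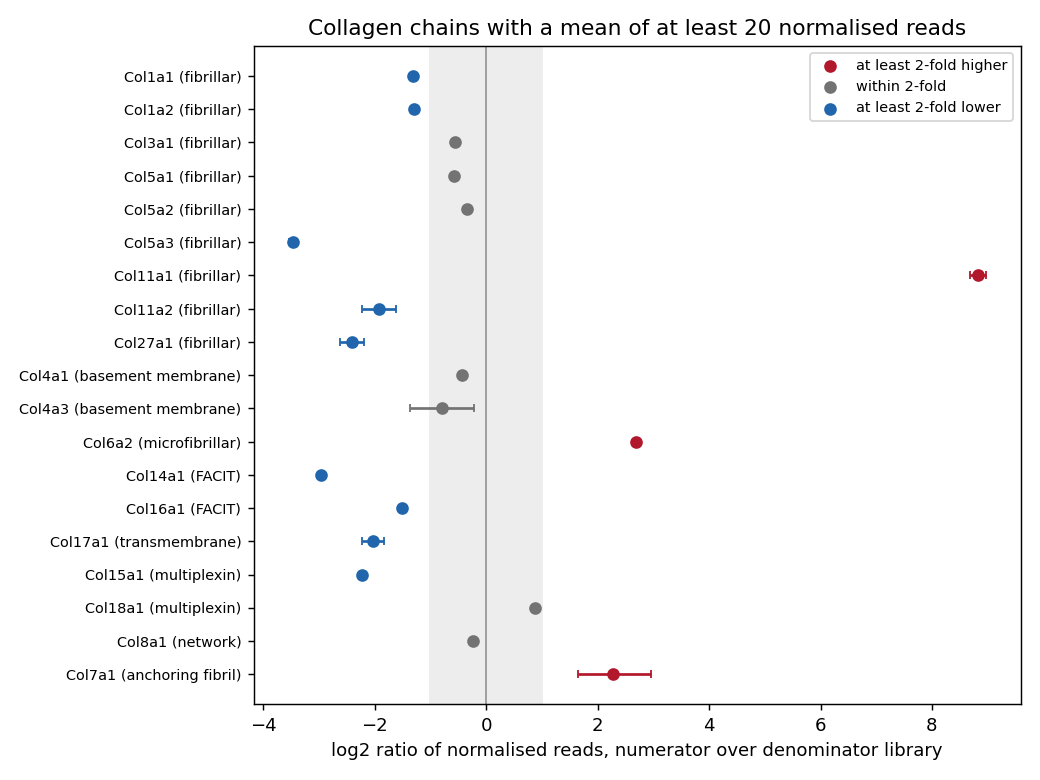
Log2 ratios of normalised reads, numerator over denominator library, of the 19 collagen chains with a mean of at least 20, by class; bars are 95% Clopper-Pearson counting intervals and the grey band is 2-fold. Of the chains drawn, 3 lie right of the band (Col11a1, Col6a2 and Col7a1), 9 left of it and 7 inside it.

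Of the basement membrane collagens, 3 chains were found in the deposited table. Col4a2, Col4a5 and Col4a6 were not among them, so nothing is known of these here. Col4a1 and Col4a3 reached the minimum and both stayed within 2-fold. Col4a1, part of the network found in nearly every basement membrane, had 549705 reads in the numerator and 726240 in the denominator library (1.35-fold fewer, counting interval 1.34 to 1.35). Col4a3, a chain of specialised basement membranes such as that of the kidney glomerulus, had 42 reads in the numerator and 71 in the denominator library (1.72-fold fewer, counting interval 1.16 to 2.58). Its head-to-head neighbour Col4a4 had 6 reads in each library. The ratio of Col4a3 to Col4a4 was 0.592 times as large in the numerator library, but its interval of 0.179 to 1.95 included 1.

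Type VI collagen was represented by Col6a2, a chain needed for assembly of its microfilaments, and by Col6a4. Col6a2 went against most of the family, with 137484 reads in the numerator and 21080 in the denominator library, 6.41-fold higher (interval 6.31 to 6.50). Col6a4 had 0 reads in the numerator and 1 in the denominator library, at or under the floor of 3 reads, and no fold is given. The other main chains, Col6a1 and Col6a3, were not analysed here, so no ratio within the type VI molecule can be given.

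Of the 4 FACIT chains found in the deposited table, the 2 with enough reads were both lower, where 12.7% of all genes were. Other FACIT chains, such as Col12a1, were not found there. Col14a1, which binds the surface of type I fibrils, had 5692 reads in the numerator and 43728 in the denominator library, 7.82-fold lower (counting interval 7.61 to 8.04). Col16a1, a FACIT chain found near smooth muscle and fibroblasts, had 11827 reads in the numerator and 32975 in the denominator library and was 2.84-fold lower (counting interval 2.78 to 2.90). Col9a2, a cartilage chain, had 6 reads in the numerator and 22 in the denominator library, under the minimum.

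Among transmembrane chains, Col17a1, a component of the hemidesmosomes that anchor epithelial cells, had 274 reads in the numerator and 1095 in the denominator library, 4.07-fold lower (counting interval 3.56 to 4.66). Col13a1 had 3 reads in the numerator and 0 in the denominator library, and Col23a1 had 1 in the numerator and 2 in the denominator library, all at or under the floor of 3 reads.

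The 2 multiplexins, basement membrane collagens that carry sugar side chains, split. Col15a1 had 22034 reads in the numerator and 100908 in the denominator library, 4.66-fold lower (counting interval 4.60 to 4.73). Col18a1, whose end fragment is endostatin, had 35581 reads in the numerator and 19075 in the denominator library, 1.83-fold more and within the limit (interval 1.80 to 1.86). Of the rest, Col8a1, a short-chain network collagen of vessel walls, had 74488 reads in the numerator and 85713 in the denominator library (1.17-fold fewer, counting interval 1.16 to 1.18). Col7a1, which forms the anchoring fibrils beneath epithelia, had 123 reads in the numerator and 25 in the denominator library and was 4.83-fold higher (interval 3.12 to 7.76).

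In the authors' deposited table the fold change is shrunken towards 0, and 4 of the 25 chains had an unadjusted p-value under 0.05, against 3.23% of its 13221 genes with a p-value. By the deposited p-values these were Col11a1 (0.0136), Col5a3 (0.0215), Col14a1 (0.0311) and Col6a2 (0.0389). The smallest adjusted p-value of any gene in the authors' deposited table was 0.999. The deposited log2 fold change was 3.07 for Col11a1 and -2.53 for Col5a3, smaller in size than the ratios of the recovered reads, and these p-values rest on no replicates.

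The chains lie on many chromosomes, and 2 of the lower ones lie on chromosomes whose genes as a whole had fewer reads in the numerator library. By GRCr8 position, chosen for a look after the data were seen, the measured genes of chromosome 4, which holds Col1a2, had a median log2 ratio of -0.38. Those of chromosome 7, which holds Col14a1, had a median of -0.60. On the other chromosomes medians ran from -0.07 to 0.24. Less its chromosome's median, the log2 ratio of Col14a1 was -2.37 and thus beyond 2-fold, unlike that of Col1a2 given above. The 20 nearest measured genes around Col1a2 had a median of -0.31, and those around Col1a1, on chromosome 10, had a median of -0.32, which leaves -0.99 for Col1a1 and -0.98 for Col1a2. Around Col11a1 the neighbours' median was -0.17, around Col5a3 -0.23 and around Col6a2 0.38. Around Col14a1 it was -0.67 and around Col11a2 -0.51, with 7 of 20 neighbours lower at each. The part of the neighbourhood in these results was not tested.

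Genes that make, modify, bind or break down collagen were described from 8 lists. Of their 78 genes with a mean of at least 20, 16 (20.5%) were higher, 13 (16.7%) lower and 49 within 2-fold, with a median log2 ratio of -0.06. Over all genes, 13.9% were higher and 12.7% lower.

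The enzymes that modify chains in the endoplasmic reticulum had 2 of 14 members lower and 0 higher, with a median of -0.09. P4ha2, a catalytic subunit of prolyl 4-hydroxylase, had 32137 reads in the numerator and 68597 in the denominator library (2.17-fold lower, counting interval 2.14 to 2.20). P3h2, a prolyl 3-hydroxylase, had 37 reads in the numerator and 141 in the denominator library (3.88-fold lower, counting interval 2.69 to 5.73). P4hb, the common subunit of prolyl 4-hydroxylase, had 377195 reads in the numerator and 386904 in the denominator library, 1.04-fold fewer. Among 10 folding and export genes, 2 were higher and 1 lower, with a median of 0.02 that was -0.07 when libraries were scaled to totals without the 50 most abundant genes. Serpinh1, the collagen chaperone HSP47, had 246727 reads in the numerator and 326526 in the denominator library (1.35-fold fewer, within the limit). Creb3l1, a factor that activates type I genes in mouse bone, was 2.04-fold lower, and Sec23a, a coat protein of the vesicles that export procollagen, was 2.09-fold higher. Sec23a lost its call when libraries were scaled to totals without the 50 most abundant genes (log2 ratio 0.97). By the fold changes of the authors' deposited table, Creb3l1 (-0.92) and Sec23a (0.96) both stayed within 2-fold. Trappc2, a partner in that export, was 5.22-fold higher. Of these 24 genes, 19 were thus within 2-fold. Over all genes 13.9% were higher and 12.7% lower, so most genes of the comparison were within 2-fold as well.

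Propeptide removal had 1 of 6 members lower, 0 higher and a median of -0.32. For this list and the cross-linking genes below, the shares over all genes were 12.7% lower and 13.9% higher. The lower one was Adamts14, a procollagen N-proteinase, with 899 reads in the numerator and 2863 in the denominator library (3.24-fold lower). Bmp1, the procollagen C-proteinase, had 14461 reads in the numerator and 19900 in the denominator library (1.40-fold fewer, within the limit). Cross-linking genes had 2 of 6 lower and 1 higher, with a median of -0.32. Loxl4 was 3.64-fold and Loxl2 2.79-fold lower; both belong to the lysyl oxidase family that joins fibril molecules. Lox itself had 100309 reads in the numerator and 70768 in the denominator library (1.39-fold more, within the limit). Tgm2, a transglutaminase, was 5.29-fold higher.

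Of 11 fibril-associated partners, 6 were higher and 2 lower, beside 13.9% and 12.7% of all genes, and the median was 1.02. Thbs2, thrombospondin-2, a regulator of fibril shape, had 70502 recovered reads in the numerator and 20 in the denominator library, a 3462-fold higher value (interval 2241 to 5668). In the authors' deposited table, however, the log2 fold change of Thbs2, which is shrunken towards 0, is 0.65. That is far from the 11.69 of the recovered reads, so the size of its difference is uncertain. The median of the partners was the value of Fn1, 2.02-fold higher. By the deposited fold changes Fn1 (0.92), like Thbs2, was within 2-fold, and the median was 0.65. With libraries scaled to totals without the 50 most abundant genes, the median was 0.92. Prelp, a small leucine-rich protein that binds collagen, had 20153 reads in the numerator and 271 in the denominator library (73.0-fold higher, counting interval 64.8 to 82.6). Tgfbi was 11.2-fold higher. Fmod, the fibril-binding proteoglycan fibromodulin, had 47 reads in the numerator and 5 in the denominator library (9.23-fold higher, counting interval 3.69 to 29.7). The 2 lower partners were Dcn (3.64-fold) and Ogn (2.58-fold). Sparc (1.92-fold), Postn (1.87-fold) and Bgn (1.24-fold) had fewer normalised reads in the numerator library, within the limit. Genes of collagen breakdown and its inhibitors had 6 of 11 higher and 3 lower, with a median of 1.60. The higher ones included the inhibitor genes Timp1 (3.03-fold) and Timp3 (3.22-fold), and the median was the value of Timp1. The protease genes Mmp2 (3.63-fold) and Ctsk (2.57-fold) were lower, and Mmp14 stayed within 2-fold (log2 ratio -0.06). The collagenase gene Mmp13 had 4678 reads in the numerator and 27 in the denominator library (170-fold higher, counting interval 117 to 258). Adamts1 was 30.1-fold and the membrane protease gene Mmp16 17.4-fold higher, while the gelatinase gene Mmp9 had 10 reads in the numerator and 149 in the denominator library (15.2-fold lower, counting interval 8.02 to 32.3).

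Receptors for collagen had 1 of 7 lower and 0 higher, with a median of -0.12. For this list and the transcription factors below, the shares over all genes were 12.7% lower and 13.9% higher. The lower receptor was Cd36, a scavenger receptor that also binds collagen, with 12 reads in the numerator and 49 in the denominator library. Transcription factors known to act on collagen genes had 1 of 13 higher, 1 lower and a median of -0.00. Scx, scleraxis, which drives type I collagen in mouse tendon, had 396 reads in the numerator and 1 in the denominator library (389-fold higher, counting interval 69.4 to 15399). Twist1 was 2.12-fold lower. In the authors' deposited table the log2 fold changes of Cd36 (-0.88) and Twist1 (-0.96) are within 2-fold.

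**Figure D4:**
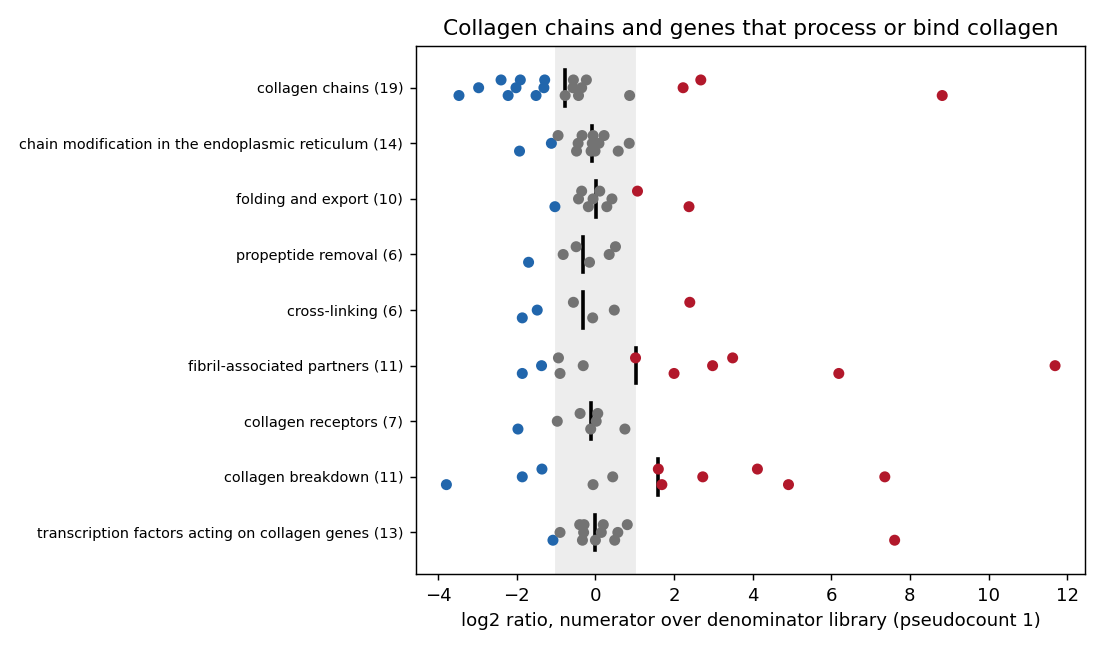
Log2 ratios, numerator over denominator library, of the collagen chains and of 8 lists of genes that process, bind or regulate collagen (number of genes in brackets, each with a mean of at least 20); points are genes, black bars medians, the grey band 2-fold. The chains' median is -0.77, that of the breakdown list, which includes inhibitor genes, 1.60 and that of the modification list -0.09.

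Markers of cell types also differed between the libraries. Their counts stand beside the 13.9% of all genes that were higher and the 12.7% that were lower. Smooth muscle markers were read in 8 of 8 genes, 2 of them higher and 0 lower, and summed to 1643657 normalised reads in the numerator and 916114 in the denominator library. Mesenchymal progenitor markers were also read in 8 of 8, 4 of them higher and 3 lower, with sums of 171501 in the numerator and 262310 in the denominator library. That direction rested on Thy1, without which the sums were 99376 in the numerator and 58031 in the denominator library. Among these progenitor markers Cd34 had 54 reads in the numerator and 3 in the denominator library, Vcam1 had 4327 in the numerator and 13 in the denominator library, and Kit had 170 in the numerator and 2858 in the denominator library. Cd44 (48872 reads in the numerator and 33488 in the denominator library), Nt5e (42397 and 6613) and Thy1 (72779 and 202443) were well read in both. Eng had 3431 in the numerator and 14168 in the denominator library, and Abcg2 1027 in the numerator and 366 in the denominator library. Progenitor markers of this list were thus unevenly present, with Cd34 in the denominator library at the floor of 3 reads. Pericyte markers, 5 of 6 lower, summed to 81380 in the numerator and 395077 in the denominator library. The largest part of the denominator sum was Abcc9, with 38 reads in the numerator and 168646 in the denominator library. By the authors' deposited fold change, however, the log2 value of Abcc9 is -0.63. Without Abcc9 the sums were 81342 in the numerator and 224901 in the denominator library. Endothelial markers, 4 of 5 lower and 1 higher, summed to 667 in the numerator and 8188 in the denominator library, with Kdr listed at 0. Fibroblast markers, 4 of 6 higher and 2 lower, summed to 112440 in the numerator and 49091 in the denominator library. The fibroblast direction rested on S100a4, without which the sums were 5168 in the numerator and 9883 in the denominator library. Epithelial markers, 1 of 3 higher and 1 lower, summed to 3015 in the numerator and 1571 in the denominator library, with Cdh1 listed at 0. Macrophage markers, 1 of 3 higher and 2 lower, summed to 295 in the numerator and 400 in the denominator library, with Ptprc and Adgre1 listed at 0. Leaving out the gene with the highest mean, chosen after the data were seen, turned the direction of the progenitor and fibroblast sums but of none of the other marker lists. The part of these markers in the ratios of the chains was not tested.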

How the data were processed

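RNA of the 2 libraries was sequenced as single reads of 36 bp, per the labels' protocols. The authors used TopHat, FastQC, SAMtools, featureCounts and DESeq2 with the builds rn4 and rn5, per the submitters' processing notes, which give no versions or settings. The sources used here do not say whether reads were counted by strand. Per the file headers, the deposited mean is a signal, reads divided by size factors and averaged over both libraries. The deposited fold change and standard error are log2 values, the deposited statistic is a score, and the p-values are the authors' own.

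Reads were recovered with Python 3.11.15 and scipy 1.17.1. With size factors of 1.01 and 0.991, each mean fixes a whole-number equation in both read counts. For 11 of the 25 chains above 0, 1 pair solved it. For 14 chains with 4 to 1657 pairs, the penalised negative binomial equations of the authors' DESeq2 fit were solved for each pair, and the pair that met the deposited standard error was taken. Chosen pairs missed it by at most 7.31e-07 and the next-best pairs by at least 0.00833. The recovery was tested on simulated data made with the same fit, which cannot show whether the authors' fit followed these equations.

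Log2 ratios used a pseudocount of 1, and folds used none. Fold intervals are exact Clopper-Pearson, given the summed reads. The sources used here name no molecular identifiers, so reads may repeat a molecule. Every chain above 0 is named, and of each list the 4 most changed genes past 2-fold plus P4hb, Serpinh1, Bmp1 and Lox. In the breakdown list, Timp1, Timp3, Mmp2, Ctsk and Mmp14 were also named, after their values were seen. The same holds for Dcn, Ogn, Sparc, Postn, Bgn and Fn1 among the fibril-associated partners. Genes of the marker lists were likewise chosen after their values were seen. The chains and lists were chosen with earlier results of these data known. RefSeq's GRCr8 annotation holds 44 chain symbols of this form. Of these, 17 were not among the chains found in the deposited table and were not analysed here. The annotation placed 10379 of the 11212 measured genes. Alternatives covered the minimum, the fold limit, scaling, pseudocount, source of the ratio and recovery.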

Additional observations from a re-analysis of the deposited data

How the results depend on the processing

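No replicate could be left out, and no paired analysis was possible because each group has 1 library. The median of the chains stayed below 0, and lower chains outnumbered higher ones, under each alternative run for them. The count of lower chains was 9 in the main setting and 5 at a 4-fold limit (5.11% of all genes), where fewer chains can pass by construction. With only genes that had 1 possible pair of reads, 5 chains were left, 1 higher and 3 lower (15.4% and 15.2% of all such genes), with a median of -1.91, since this drops the chains with most reads. Without chromosomes 4 and 7, an alternative added after seeing the data like the minimum of 1000, 7 of 17 chains were lower and 3 higher (11.4% and 14.6% of all such genes), with a median of -0.57. All 125 values of single chains under other scalings, pseudocounts and the deposited fold change had the sign of the main value. Most of this was fixed in advance, so it is no independent check. A pseudocount added to both libraries cannot turn a sign, and scaling to the total of listed genes moved the median of all genes by 0.00. The deposited fold change itself entered the choice of reads for chains with several possible pairs. Scaling to totals without the 50 most abundant genes moved the median of all genes by -0.10, and turned the median of the folding and export list to -0.07. Counting error limits Col4a3, Col7a1 and the 6 chains under the minimum; for the others the missing replicates are the limit.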
